A study of Mus musculus with 36 samples.

Results

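The vacuolar proton pump and the cathepsins were followed in the livers of mice that differ at 1 residue of the liver X receptor LXRalpha. The set comprised 43 of the 49315 genes listed: every gene whose symbol begins with Atp6v0, Atp6v1 or Atp6ap, and every gene named Cts plus a single letter, with 1 pseudogene of the pump left out. Of these, 25 encode parts of the pump and 18 encode cathepsins. Values were TPM, transcripts per 1000000, which correct for gene length and library total. Members were tested where at least 4 of the 36 libraries reached 1 TPM, which held for 33 members, 19 of the pump and 14 cathepsins, among 16638 genes tested in all. The 10 members below that level are described near the end.

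PolyA RNA came from livers of male mice aged 11 to 12 weeks, with 4 samples in each of 9 groups. LXRalpha, a nuclear receptor for oxidised cholesterol, had been edited by CRISPR so that residue 441, a tryptophan (W), became phenylalanine (F). Mice with 2 W alleles are written W/W, those with 1 of each W/F, and those with 2 F alleles F/F. Mice of all genotypes were examined on normal chow, and others on a MASH diet (metabolic dysfunction-associated steatohepatitis, Teklad TD.96121, rich in fat and cholesterol) with either vehicle or the synthetic LXR agonist T0901317. The MASH diet was given for 4 weeks, and T0901317 at 10 mg/kg or vehicle was given by oral gavage each day over the last 2 weeks. The labels name no cell type to which the edit is restricted. The chow mice were an independent cohort, so diet and cohort cannot be told apart. A change of 1 codon is not visible in a gene's TPM, so these values cannot check the genotype labels. The labels do not state how samples map to cages or litters, and p-values here measure the spread between these samples.

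The vacuolar ATPase is a rotary pump that acidifies lysosomes, endosomes and secretory vesicles. Its V1 sector lies in the cytosol and hydrolyses ATP, its V0 sector lies in the membrane and carries the protons, and the accessory proteins Atp6ap1 and Atp6ap2 help to assemble it. Cathepsins are the proteases of the acidic lysosome, and most of them are activated and work best at low pH. In liver they are made by hepatocytes and in large amount by macrophages, where they take part in breaking down engulfed lipoproteins and dead cells and in presenting antigen. Many genes of both families carry an E-box, with the letters CACGTG, that the lysosomal transcription factors TFEB and TFE3 recognise, most often within a longer TCACGTG.

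Because many members moved together in the comparisons described here, the RefSeq (GRCm38.p6) windows of 300 bases around each gene's start, most of it upstream, were read for these letters on both strands. Windows were listed for 32 of the 43 members, 36 windows in all. CACGTG was present in 8 of the 36, each of a different member, and 7.15% of all 32851 windows held it. TCACGTG, or CACGTGA on the other strand, was present in 6 of the 36, each of a different member, and 3.765% of all windows held it. The stretches around these sites are shown 5′ to 3′ on the strand of the gene, with the motif in capitals, so that the letters shared by V0, V1 and cathepsin genes can be read side by side. The longer motif contains the shorter one, and where both strands match, the copies overlap to 8 letters.
Atp6v0b, V0 proteolipid (chr4:117887340-117887368, - strand): ggTCACGTGgggtcggcgcaTCACGTGcg
Atp6v0d1, V0 subunit d (chr8:105566050-105566079, - strand): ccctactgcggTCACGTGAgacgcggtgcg
Atp6v0e, V0 subunit e (chr17:26676387-26676416, + strand): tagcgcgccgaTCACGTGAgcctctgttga
Atp6v1a, V1 catalytic subunit A (chr16:44139373-44139402, - strand): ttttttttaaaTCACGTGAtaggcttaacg
Ctsa, serine carboxypeptidase (chr2:164833758-164833786, + strand): tgTCACGTGAtgcagatgcTCACGTGAcc
Ctsd, aspartic protease, nearer site (chr7:142387908-142387937, - strand): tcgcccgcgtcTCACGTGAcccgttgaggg
Ctsd, farther site (chr7:142388055-142388077, - strand): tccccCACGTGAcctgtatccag
The windows of Atp6v0b and Ctsa each held the motif at 2 places close together, and that of Ctsd at 2 places far apart. Ctsf and Ctsl held CACGTG without the flanking T. The windows of Ctss and Ctsk, described first among the values, held neither motif. The letters are a description of sequence, and binding was not measured.

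The 36 libraries held an estimated 18.07 to 35.79 M reads (M, 1000000). Genes that define hepatocytes, such as Alb and Apoa1, were abundant in every library, with 8 markers summing to between 34756 and 101610 TPM. Each library's TPM sum to 1000000, and the median gene on the log2 scale was 0.70 higher in F/F than in W/W on the MASH diet with vehicle. Counts of members called are therefore also given after rescaling every library by the median of its gene ratios, which brings the median gene near 0. Fold changes are fitted differences of log2(TPM + 1) with their standard error (SE), which understate the change of genes below a few TPM, and adjusted p-values are from limma over all genes tested. Of the libraries, W/F T0901317 replicate 2 stood apart from the other 3 of its group for 7 members. The largest T0901317 responses in W/F are given with and without it, and most other fold changes that use this group include it.

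In W/W mice on chow, cathepsin transcripts outweighed those of the pump. The 18 cathepsin genes summed to 1698 ± 123 TPM (SD, n = 4) and the 25 pump genes to 727 ± 35.5 TPM. Ctsl, a broad endopeptidase, led with 646 ± 94.1 TPM, followed by Ctsz, a carboxypeptidase, at 299 ± 17.7 TPM, Ctsb at 252 ± 21.6 TPM, and Ctsd, the main aspartic protease, at 193 ± 11.4 TPM. Ctsh, an aminopeptidase, and Ctsa, a carboxypeptidase that also protects lysosomal sialidase, stood at 117 ± 6.89 TPM and 72.7 ± 3.62 TPM. Ctss, which processes the invariant chain of MHC class II in antigen-presenting cells, was at 31.8 ± 6.56 TPM, and Ctsk, the collagen-degrading protease of osteoclasts, at 1.47 ± 0.308 TPM. Among pump genes, Atp6v1g1 of the peripheral stalk was at 109.8 ± 4.99 TPM and the V0 subunit Atp6v0d1 at 85.5 ± 4.43 TPM, while the catalytic Atp6v1a was at 19.7 ± 1.51 TPM. Of the d subunit genes, Atp6v0d1 is broadly expressed and Atp6v0d2 is known from osteoclasts, macrophages and kidney. Atp6v0d2 stood at 3.15 ± 2.11 TPM in these livers.

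On the MASH diet with vehicle, members of both families were higher in F/F than in W/W livers. Of the 33 tested, 32 were higher and none was lower, against 69.3% of all genes tested that were higher. The exception was Ctse, an aspartic protease of stomach and immune cells, with 0.391, 1.09, 0.858 and 0.589 TPM in W/W and 0.574, 1.60, 0.863 and 1.14 in F/F. The median log2 fold change was 1.65 for cathepsins, 1.39 for pump genes and 0.70 for all genes. After rescaling 23 members were higher, against 31.3% of all genes, and 4 were lower. Ctsj and Atp6v0e2 passed the level filter mainly through groups where they are high, and without these genes 30 of 31 members were higher on deposited TPM and 21 of 31 after rescaling. Counts for the other comparisons keep both genes among the 33, and their calls there add no support. With both genes kept, the medians after rescaling were 0.91 for cathepsins, 0.55 for pump genes and 0.04 for all genes. In bulk liver, a change in the number of cells of a type and a change in RNA per cell cannot be told apart.

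On the log2(TPM + 1) scale Ctss had the largest difference among the members, while as a ratio of group means Ctsk (52.0) and Atp6v0d2 (48.0) lay above Ctss (32.9). In W/W mice with vehicle it stood at 36.2, 33.5, 50.1 and 88.2 TPM, and in F/F mice at 1833, 1746, 1389.7 and 1872. All 4 F/F values lay far above all 4 W/W values, with a log2 fold change of 5.11 ± 0.42 (SE) and adjusted p = 5.6e-12. Ctsk lies 17.42 kb from Ctss on chromosome 3 (chr3:95499256-95509362 and chr3:95526786-95556403, GRCm38). It stood at 0.819, 0.603, 1.40 and 2.08 TPM in W/W and 65.7, 43.9, 54.8 and 90.3 in F/F, again without overlap (4.86 ± 0.29, adjusted p = 6.3e-15). Ctsd, at 176, 208, 228 and 195 TPM in W/W, reached 1255, 1279, 1117 and 1402 in F/F, a log2 difference of 2.64 ± 0.15 (adjusted p = 2.9e-15). Ctsd shares 34.37% of its exon length with the gene model Gm49369 on the same strand, so reads there could have been assigned to either.

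Ctsb, a cysteine protease, rose from 249, 309.7, 309.6 and 280.4 TPM to 1358, 1515, 1263 and 1475, without overlap (2.29 ± 0.15, adjusted p = 4.7e-14). Ctsz stood at 264, 308, 374 and 319.8 TPM in W/W and 1205, 1206, 1049.8 and 1098 in F/F (1.85 ± 0.13), and Ctsa at 56.6, 64.3, 74.0 and 63.5 and 247, 233, 202 and 229.9 (1.81 ± 0.11). For both, all F/F mice lay above all W/W mice. Exons of Ctsb and Ctsa overlap genes on the other strand over 12.79% and 17.37% of their length, and the strandedness of counting is not given in the sources used here. Ctsl, the most abundant member on chow, differed less, by 1.43 ± 0.14, from 503, 489, 604 and 544 TPM to 1534, 1259.6, 1326 and 1662. Exons of Ctsl overlap genes on the other strand over 26.85% of their length and on the same strand over 6.087%, so its reads may also be split. Ctsc, which activates granule proteases of neutrophils and cytotoxic cells, stood at 15.7, 23.0, 26.2 and 21.2 TPM in W/W and 38.1, 63.7, 42.7 and 44.0 in F/F, a difference of 1.09 ± 0.24 (adjusted p = 1.8e-04) that did not pass after rescaling (0.26, adjusted p = 0.32). Ctsw, a protease of cytotoxic lymphocytes, stood at 1.00, 1.15, 1.31 and 1.75 TPM in W/W and 8.21, 6.82, 2.68 and 5.29 in F/F (1.48 ± 0.34, adjusted p = 2.5e-04).

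The smallest differences among the cathepsins called were those of Ctsf, Ctso and Ctsh. Ctsf was at 24.7, 25.8, 34.8 and 23.8 TPM in W/W and 40.5, 32.5, 31.9 and 37.4 in F/F. These groups overlapped, and the difference of 0.38 ± 0.13 on deposited TPM (adjusted p = 0.0088) became -0.45 ± 0.13 after rescaling (adjusted p = 0.0029). Ctso, at 19.3, 24.6, 22.3 and 23.8 TPM in W/W and 28.2, 33.5, 30.9 and 31.0 in F/F, went from 0.45 to -0.38 with rescaling (adjusted p = 2.1e-04), a called difference of opposite sign. Ctsh, at 103, 127, 130.3 and 111 and 191, 215, 181 and 202 TPM, went from 0.74 to -0.11, the latter not past the threshold (adjusted p = 0.2). Cathepsins thus spread from Ctss, more than 5 log2 units higher, to Ctsf and Ctso, whose direction depends on the scaling.

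Pump genes covered a narrower range except for a few alternative subunits. In V0, Atp6v0d2 stood at 2.35, 0.522, 1.30 and 2.06 TPM in W/W and 93.3, 48.7, 64.0 and 93.1 in F/F. The groups did not overlap, with a difference of 4.90 ± 0.39 (adjusted p = 2.7e-12), while its paralogue Atp6v0d1 went from 75.3, 74.4, 93.2 and 88.0 to 144, 134, 143 and 138 (0.76 ± 0.06). After rescaling, Atp6v0d2 differed by 4.18 and Atp6v0d1 by -0.09, the latter not past the threshold (adjusted p = 0.28). Of the small e subunit genes, Atp6v0e differed by 1.63 ± 0.12, and by 0.79 after rescaling. Atp6v0e2 was at a low level, with 0.217, 0.0850, 0.381 and 0.206 TPM in W/W and 7.35, 6.19, 6.71 and 5.95 in F/F. It reached 1 TPM almost only in groups where it is high, so these values are a description and its call adds no support. The proteolipids that form the proton-carrying ring, Atp6v0c and Atp6v0b, differed by 1.39 ± 0.09 and 1.43 ± 0.10. Atp6v0c stood at 31.0, 31.8, 36.1 and 35.1 TPM in W/W and 89.0, 93.2, 84.0 and 90.4 in F/F, without overlap. Atp6v0c shares 10.76% of its 50-base words with other genes, among them its pseudogenes, so its reads may be split. Of the a subunits, which anchor the pump and direct it to a membrane, Atp6v0a1 differed by 1.17 ± 0.11 and Atp6v0a2 by 0.52 ± 0.11, and Atp6v0a2 was -0.29 after rescaling (adjusted p = 0.0058).

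In V1, the pair that forms the ATP-hydrolysing head differed most. Atp6v1a stood at 10.4, 15.9, 17.9 and 13.1 TPM in W/W and 56.3, 61.2, 61.5 and 67.3 in F/F. Its partner Atp6v1b2 stood at 13.6, 18.9, 21.5 and 19.0 and 69.5, 71.4, 72.5 and 79.9. Neither gene overlapped between genotypes, and the differences were 2.05 ± 0.14 and 1.96 ± 0.17 (adjusted p = 9.5e-14 and 8.7e-12). The clamp subunit Atp6v1c1 differed by 1.56 ± 0.10, the rotor subunits Atp6v1d and Atp6v1f by 1.20 ± 0.09 and 1.02 ± 0.09, and the stalk subunits Atp6v1e1, Atp6v1g1 and Atp6v1g2 by 1.09 ± 0.08, 1.05 ± 0.11 and 1.09 ± 0.13. After rescaling Atp6v1f and Atp6v1g1 did not pass (0.17 and 0.20, adjusted p = 0.087 and 0.058). Atp6v1g1 shares 19.15% of its 50-base words with other genes. Atp6v1h, the regulatory subunit, had the smallest V1 difference, 0.58 ± 0.10, with 11.8, 14.6, 14.6 and 14.1 TPM in W/W and 19.8, 20.7, 20.7 and 22.9 in F/F. It was -0.23 after rescaling (adjusted p = 0.034), so within V1 the head genes moved up and Atp6v1h moved down relative to the median gene. The accessory genes Atp6ap1 and Atp6ap2, the latter also known as the prorenin receptor, differed by 1.45 ± 0.12 and 1.83 ± 0.12. Atp6ap1 stood at 41.4, 47.0, 50.1 and 47.7 TPM in W/W and 123, 142, 122 and 129 in F/F, and Atp6ap2 at 22.5, 27.8, 33.9 and 27.3 and 97.9, 107, 94.4 and 105, neither with overlap.

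**Figure D1:**
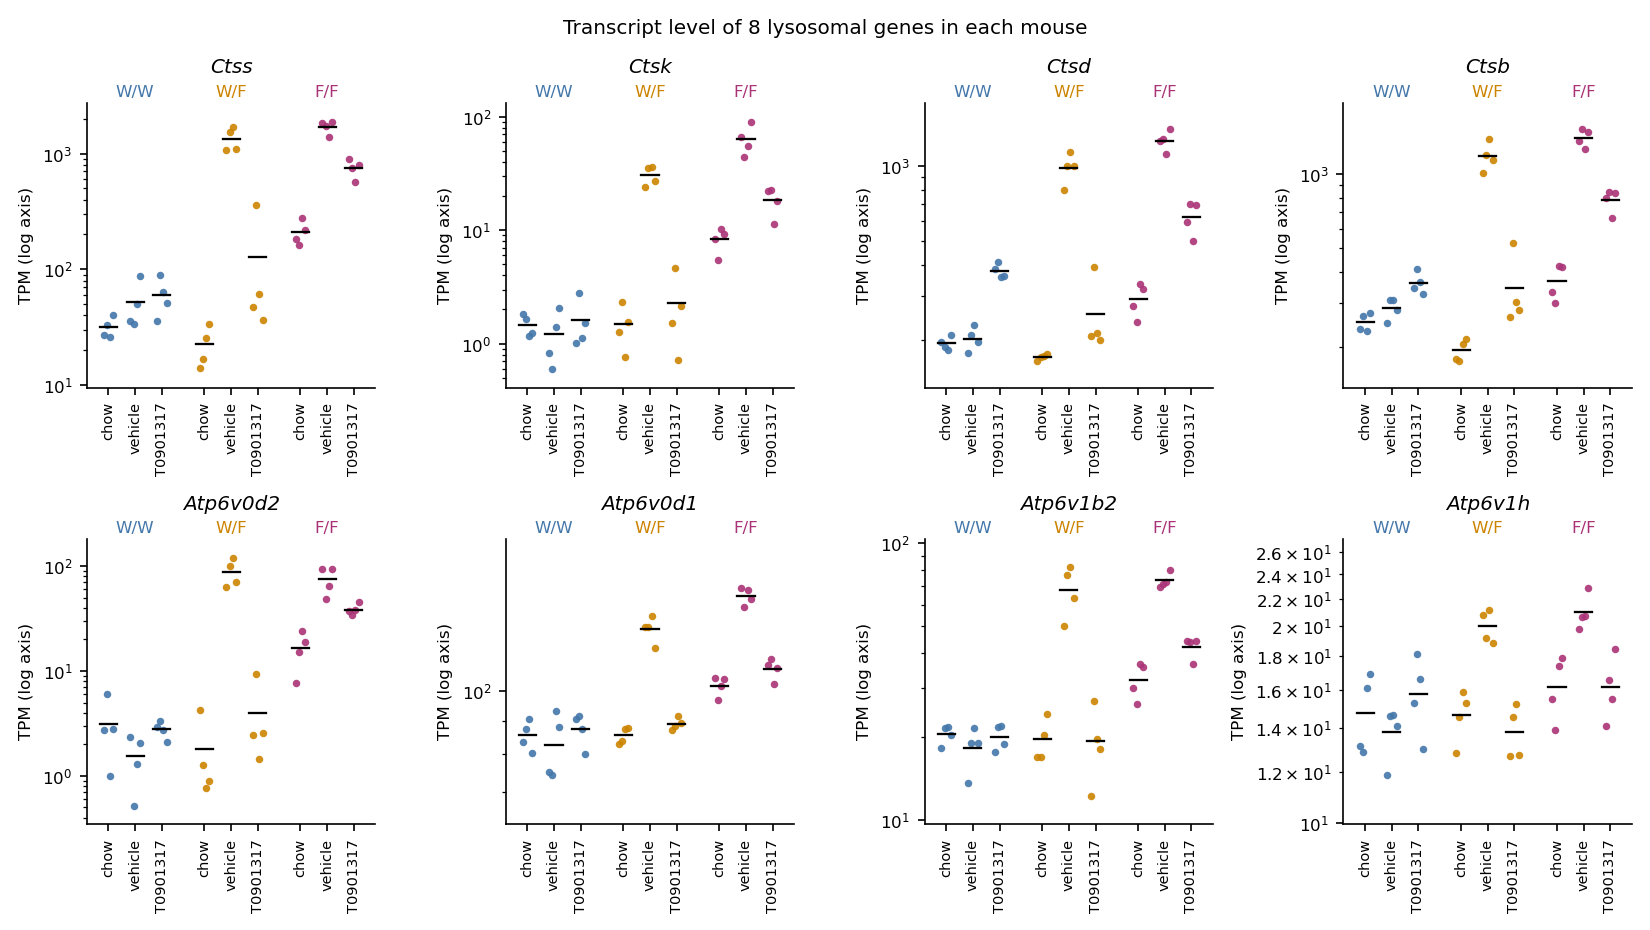
TPM of 8 members in each mouse on a log axis, with 4 points per group and a black line at the group mean, for W/W (blue), W/F (orange) and F/F (purple) on chow, on the MASH diet with vehicle and with T0901317. Ctss, Ctsk and Atp6v0d2 span more than a 50-fold range of group means, while Atp6v0d1 and Atp6v1h span less than 2-fold.

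With vehicle, members were also higher in heterozygotes. This comparison shares its W/W mice with the one above. Of the 33, 31 were higher than in W/W and none was lower, against 61.6% of all genes that were higher. The 31 include Ctsj and Atp6v0e2, whose calls add no support. After rescaling 23 were higher, against 27.8% of all genes, and 1, Ctsf, was lower (-0.56 ± 0.13). Ctss stood at 1071, 1525, 1683 and 1101 TPM in the W/F mice, Atp6v0d2 at 63.0, 100.5, 119.8 and 70.4, and Ctsk at 24.3, 35.7, 36.2 and 27.2. No W/F mouse overlapped a W/W mouse for these 3 genes, with log2 fold changes of 4.75 ± 0.42, 5.14 ± 0.39 and 3.87 ± 0.29. The mean of Atp6v0d2 was 88.4 ± 26.5 TPM (SD, n = 4), against 74.8 ± 22.2 TPM in the F/F mice, and those groups overlapped. Ctsd and Ctsb reached 984 ± 139 TPM and 1182 ± 156 TPM in W/F. Ctsf, at 23.0, 34.8, 28.4 and 29.2 TPM, and Ctse, at 0.867, 0.631, 1.14 and 1.07, were the 2 members not past the threshold on deposited TPM.

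Set directly against each other with vehicle, F/F livers were higher than W/F livers for 10 members, against 19.0% of all genes. After rescaling 1 member, Atp6v0e2, was higher, against 5.90% of all genes. Atp6v0e2 stood at 2.63, 2.91, 1.90 and 1.81 TPM in W/F and between 5.95 and 7.35 in F/F, without overlap, and its differences of 1.20 ± 0.19 and, after rescaling, 0.98 ± 0.18 are given as a description for the reason above. The count was 5 without F/F replicate 1, and 6 without F/F replicate 2, F/F replicate 4 or W/F replicate 2. Ctsk differed by 0.99 ± 0.29 (adjusted p = 0.014, 0.065 without F/F replicate 4 and 0.083 with a pseudocount of 0.1) and by 0.79 after rescaling, where it did not pass (adjusted p = 0.06). The other called members lay lower, among them Atp6v0e (0.42 ± 0.12), Atp6v1f (0.32 ± 0.09), Atp6v1d (0.29 ± 0.09) and Atp6v0c (0.24 ± 0.09). Ctss, at 0.37 ± 0.42, and Atp6v0d2, at -0.24 ± 0.39, did not pass (adjusted p = 0.58 and 0.71).

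On chow, the heterozygotes and homozygotes parted. For W/F against W/W no member passed in limma, against 0.487% of all genes in either direction, and 4 members had an unadjusted p under 0.05. After rescaling 1 member, Atp6v1g1, was lower in W/F (-0.39 ± 0.09, adjusted p = 0.029), against 0.601% of all genes. The lowest values were those of Atp6v0d2 (-0.58 ± 0.39) and Ctss (-0.54 ± 0.42), which did not pass. For F/F against W/W, 24 members were higher and none lower, against 43.0% of all genes, and after rescaling 8 were higher, against 16.1%, and 1, Atp6v1g1, was lower (-0.57 ± 0.09). Ctss stood at 27.2, 33.2, 26.3 and 40.5 TPM in W/W, against 13.9, 16.9, 25.6 and 33.7 in W/F and 183, 164, 276 and 217 in F/F. The F/F mice lay above every W/W and W/F mouse, with a log2 fold change over W/W of 2.68 ± 0.42 (adjusted p = 1.0e-05). Atp6v0d2 was at 2.71, 6.07, 1.01 and 2.83 TPM in W/W and 7.66, 15.2, 24.2 and 19.1 in F/F (2.12 ± 0.39, adjusted p = 8.1e-05). Ctsk was at 1.81, 1.66, 1.18 and 1.25 and 8.37, 5.50, 10.2 and 9.25 (1.90 ± 0.29, adjusted p = 5.8e-06). Ctss, Atp6v0d2 and Ctsk had the 3 largest differences among the members on the log2(TPM + 1) scale, on chow as with vehicle. As a ratio of group means on chow, Atp6v0e2 (5.77), from a low level, lay between Ctss (6.60) and Ctsk (5.66). Among called members without overlap the smallest differences were those of Atp6v0d1 (0.25 ± 0.06), Atp6v1d (0.36 ± 0.09) and Atp6v1e1 (0.38 ± 0.08), and the first pair changed sign after rescaling, where neither passed (-0.13 and -0.02). Ctsl differed by 0.74 ± 0.14 on deposited TPM, where 1 mouse, F/F chow replicate 2, held the top of 780.3, 1430.4, 1072 and 1087 TPM, and by 0.35 after rescaling (adjusted p = 0.086).

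F/F against W/F on chow gave 25 higher members, against 37.9% of all genes, and 10 after rescaling, against 16.6%. Ctss led with 3.21 ± 0.42, followed by Atp6v0d2 with 2.70 ± 0.39 and Ctsk with 1.92 ± 0.29. After rescaling 3 members, Atp6v0a1, Atp6v0a2 and Ctsh, were lower in F/F, by values between -0.37 and -0.23 on the log2 scale, and on deposited TPM none of them passed.

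The MASH diet separated the genotypes. In W/W, 2 members passed, both lower than on chow, against 10.3% of all genes that were lower. They were Atp6v0a1, at 17.3, 23.6, 16.9 and 21.2 TPM on chow and 12.9, 14.8, 11.9 and 16.5 on the diet (-0.47 ± 0.11, adjusted p = 0.0048), and Atp6v1a (-0.45 ± 0.14, adjusted p = 0.028). Atp6v1a did not pass without chow replicate 2 or 3 or vehicle replicate 1 or 4 (adjusted p = 0.063 to 0.17), and neither passed when only these 2 groups were fitted. After rescaling 3 members passed, against 15.4% of all genes in either direction. These were Atp6v0a1 (-0.35) and Atp6v1a (-0.34), again lower, and Atp6v1d (0.26), which was higher. For Ctss the W/W difference was 0.61 ± 0.42 and did not pass (adjusted p = 0.4). In W/F, 30 members were higher on the diet and none lower, against 52.4% of all genes, and after rescaling 24 were higher, against 28.0%, and 3, Ctsf, Atp6v0a1 and Atp6v0a2, lower. In F/F, 30 were higher and none lower, against 46.5%, and after rescaling 23 were higher, against 25.9%, and 1 lower. The W/F libraries on chow were also shallower than those with vehicle, at 20.7 to 21.8 M reads against an estimated 23.42 to 34.44 M reads, and the part of depth in the W/F result was not tested.

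The diet response of Ctss was 5.89 ± 0.42 in W/F and 3.04 ± 0.42 in F/F, from chow levels that already differed. Atp6v0d2 rose by 5.10 ± 0.39 and 2.16 ± 0.39, Ctsk by 3.70 ± 0.29 and 2.77 ± 0.29, Ctsb by 2.60 ± 0.15 and 1.93 ± 0.15, and Ctsd by 2.51 ± 0.15 and 2.12 ± 0.15. Tested as differences of responses, 29 members responded more in W/F than in W/W, against 49.5% of all genes, and 28 more in F/F than in W/W, against 41.5%. After rescaling these counts were 19, against 21.1%, and 19, against 14.7%, with 1 member responding less in each, Ctsf in W/F (-0.50) and Ctso in F/F (-0.41). Ctsl, which was already high in F/F on chow, gained 0.43 ± 0.14 in F/F and 1.15 ± 0.14 in W/F, and its F/F value was 0.08 after rescaling (adjusted p = 0.71). Ctso had no diet call in F/F on deposited TPM (-0.09 ± 0.10, adjusted p = 0.48) and was lower after rescaling (-0.42 ± 0.08, adjusted p = 9.6e-05). The responses compared share the W/W samples.

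**Figure D2:**
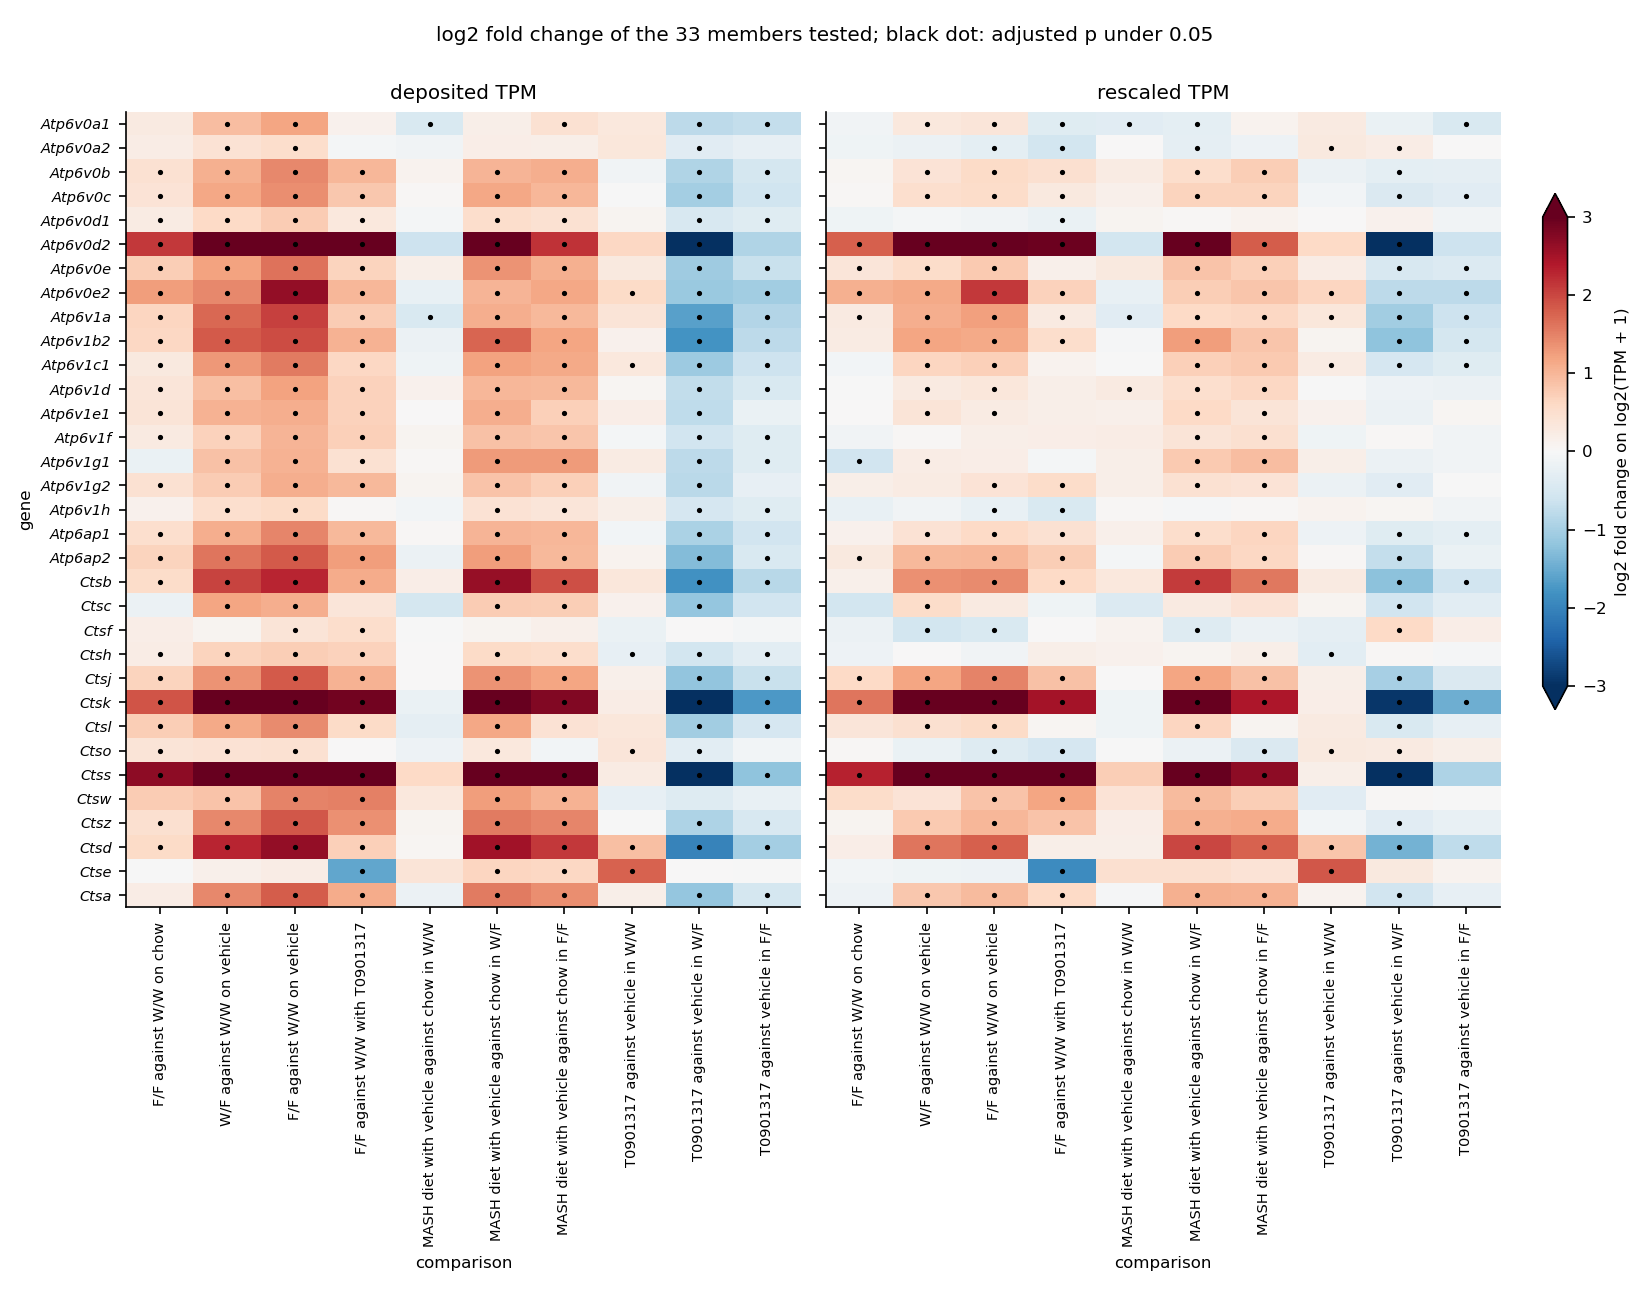
Log2 fold change of the 33 members tested (rows) in 10 comparisons of 2 groups (columns), on deposited TPM at left and after rescaling at right, with red higher and blue lower in the group named first, colours limited at -3 and 3, and a black dot at adjusted p under 0.05. The columns for F/F and W/F with vehicle and for the diet in W/F and F/F are red and those for T0901317 in W/F and F/F are blue on deposited TPM, while after rescaling Atp6v0d1, Atp6v1h, Ctsf, Ctsh and Ctso are near white or of the opposite colour.

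On deposited TPM, most members were lower with T0901317 in the mutant genotypes and few were in W/W. After rescaling most were lower in W/F only. In W/F, 30 members were lower than with vehicle and none higher, against 59.3% of all genes, and after rescaling 20 were lower, against 27.3%, and 3 higher. Ctss, between 1071 and 1683 TPM with vehicle, stood at 47.6, 362, 61.4 and 36.5 with T0901317. Replicate 2 was the high value and still lay below every vehicle mouse. The difference was -4.04 ± 0.42 (adjusted p = 3.0e-09), and without that mouse -4.77. Atp6v0d2 fell to 2.44, 9.46, 1.44 and 2.56 TPM (-4.36 ± 0.39, and -4.80 without replicate 2) and Ctsk to 1.52, 4.68, 0.716 and 2.14 (-3.41 ± 0.29, and -3.72). Without replicate 2, 31 members were lower. Pan-macrophage markers, Csf1r and 4 others, were also highest in that mouse. Atp6v1b2 differed by -1.80 ± 0.17, Atp6v1a by -1.63 ± 0.14, Ctsb by -1.83 ± 0.15 and Ctsd by -2.01 ± 0.15. Without replicate 2 these values were -1.97, -1.74, -2.05 and -2.24. At the small end of the called members without overlap were Atp6v1h (-0.51 ± 0.10), Atp6v0d1 (-0.47 ± 0.06) and Atp6v0a2, of which the first pair were at 0.06 and 0.12 after rescaling and did not pass. The 3 members that were higher after rescaling were Atp6v0a2 (0.23 ± 0.09), Ctsf (0.60 ± 0.13) and Ctso (0.27 ± 0.08). On deposited TPM Atp6v0a2 and Ctso were lower, at -0.34 and -0.31.

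In F/F, 24 members were lower with T0901317 and none higher, against 31.2% of all genes, and after rescaling 11 were lower, against 8.12%. Ctss went from between 1389.7 and 1872 TPM with vehicle to 889.8, 748, 564 and 799, without overlap (-1.20 ± 0.42, adjusted p = 0.029). It did not pass without T0901317 replicate 3 or vehicle replicate 1, 2 or 4 (adjusted p = 0.054 to 0.096), nor after rescaling (-0.93 ± 0.39, adjusted p = 0.11). Atp6v0d2 was at 37.1, 34.3, 37.9 and 45.1 TPM, below the 4 vehicle mice, but did not pass on either scaling (-0.89 ± 0.39, adjusted p = 0.073). It passed when only these 2 groups were fitted (adjusted p = 0.016). Ctsk fell to 22.0, 22.8, 11.2 and 18.1 TPM (-1.72 ± 0.29, adjusted p = 6.8e-05, and -1.45 after rescaling). Other called members included Atp6v0e2 (-1.04 ± 0.19), Ctsd and, at the small end, Atp6v1h (-0.37 ± 0.10), Atp6v0d1 (-0.37 ± 0.06) and Ctsh (-0.31 ± 0.08). Compared with the response of W/W, 31 members responded more negatively in W/F, against 53.2% of all genes, and 26 in F/F, against 27.2%. After rescaling these were 19, against 24.1%, and 11, against 10.1%, while 2 members, Ctsf (0.86) and Ctsh (0.36, and -0.30 on deposited TPM), responded more positively in W/F.

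With T0901317, few members set W/F apart from W/W, while most set F/F apart from both. W/F differed from W/W for 4 members, against 9.88% of all genes in either direction. Ctsz (0.53 ± 0.13) and Ctsh (0.37 ± 0.08) were higher, and Ctsd (-0.64 ± 0.15) and Ctse (-1.59 ± 0.21) were lower. Ctsd and Ctsz did not pass when only these 2 groups were fitted (adjusted p = 0.13 and 0.12). After rescaling 5 members differed, against 13.5% of all genes, the same 4 and Atp6v0b, which was higher (0.27 ± 0.09). F/F exceeded W/W for 27 members, against 56.3% of all genes, and was lower for 1, Ctse (-1.56 ± 0.21). After rescaling 16 were higher, against 24.4%, and 6 lower, among them Atp6v0a2 (-0.56), Ctso (-0.50) and Atp6v0d1 (-0.21), the last of which was higher on deposited TPM (0.31). Ctss stood at 36.1, 90.2, 64.1 and 51.3 TPM in W/W with T0901317, far below the F/F mice (3.67 ± 0.42, adjusted p = 2.4e-08). F/F exceeded W/F for 27 members, against 58.5%, and after rescaling 15 were higher, against 21.7%, and 5 lower. Atp6v0d2 led that comparison with 3.23 ± 0.39 and Ctss followed with 3.21 ± 0.42.

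In W/W mice T0901317 changed 6 members, against 10.8% of all genes in either direction. Higher were Ctse, Ctsd, Atp6v0e2 (0.58 ± 0.19), Ctso (0.36 ± 0.10) and Atp6v1c1 (0.31 ± 0.10), and Ctsh was lower (-0.25 ± 0.08). After rescaling 8 passed, against 13.6% of all genes, these 6 in the same directions and, higher, Atp6v0a2 (0.28) and Atp6v1a (0.33). On deposited TPM, without T0901317 replicate 3 or without vehicle replicate 1, 3 members passed. Ctsd passed under each alternative run, and Ctse under each but the 5 TPM filter, which left it untested. The other 4 did not pass when only these 2 groups were fitted, nor without single mice. These were all vehicle mice but replicate 3, and T0901317 replicates 1 and 3, for Atp6v0e2 (adjusted p up to 0.17), vehicle replicates 1 and 3 and T0901317 replicates 3 and 4 for Ctso (up to 0.11), vehicle replicates 1, 3 and 4 and T0901317 replicates 2, 3 and 4 for Atp6v1c1 (up to 0.22), and vehicle replicates 2 and 3 and T0901317 replicates 1, 2 and 4 for Ctsh (up to 0.15).

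The aspartic cathepsins responded in W/W and in no other genotype in this direction. Ctsd stood at 176, 208, 228 and 195 TPM with vehicle and 384, 410.2, 358 and 359 with T0901317. All 4 treated W/W mice lay above the vehicle mice (0.91 ± 0.15, adjusted p = 7.6e-05), while Ctsd fell in W/F to 206, 393, 212 and 199 TPM (-2.01 ± 0.15) and in F/F to 595, 699.7, 497 and 698 (-1.03 ± 0.15). The differences of response from W/W were -2.91 ± 0.21 in W/F and -1.94 ± 0.21 in F/F (adjusted p = 2.2e-11 and 1.5e-07), and -2.24 and -1.60 after rescaling.

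Ctse was low in all groups but W/W with T0901317. It stood at 0.391, 1.09, 0.858 and 0.589 TPM with vehicle and 5.10, 7.64, 2.69 and 5.04 with T0901317 in W/W, without overlap (1.77 ± 0.21, adjusted p = 3.5e-07). In W/F the values with T0901317 were 0.781, 1.23, 0.751 and 1.05 TPM, and in F/F 0.898, 1.43, 1.46 and 0.378, both overlapping vehicle (0.02 ± 0.21 and -0.02 ± 0.21). The response differed from W/W by -1.75 ± 0.29 in W/F and -1.79 ± 0.29 in F/F (adjusted p = 1.1e-05 and 6.2e-05). An estimated 1378 reads over the 36 libraries lie behind Ctse, 223.5 of them in 1 W/W library with T0901317. Stomach and goblet cell markers are 4 genes that mark another known site of Ctse. They summed to 0.469 to 1.34 TPM in the W/W mice with T0901317 and 1.27 to 3.79 with vehicle. Gkn1 and Muc5ac were at 0 in both groups, and neither of the 2 genes tested was called. These levels are low, and the part of any cell type in the Ctse result was not tested.

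**Figure D3:**
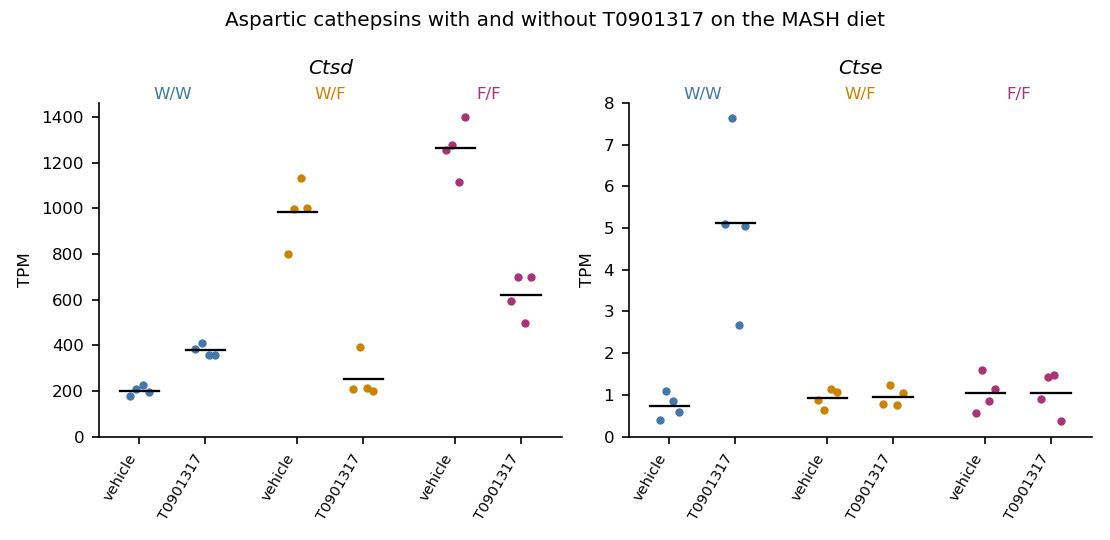
TPM of the aspartic cathepsins Ctsd and Ctse in each mouse on the MASH diet with vehicle or T0901317, by genotype, with 4 points per group, a black line at the mean and axes from 0. Ctsd is higher with T0901317 in W/W and lower in W/F and F/F, and Ctse reaches 2.69 to 7.64 TPM in W/W with T0901317 and at most 1.60 TPM in the other groups shown.

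Within subunits, the share of the alternative gene moved with genotype and treatment. Atp6v0d2 made up 1.85 ± 1.02% (SD, n = 4) of the summed TPM of the d subunit genes in W/W with vehicle, against 40.9 ± 6.53% in W/F and 34.3 ± 6.64% in F/F. With T0901317 it was 3.07 ± 0.378% in W/W, against 4.18 ± 3.71% in W/F and 26.3 ± 2.53% in F/F. On chow the F/F mice, at 6.83, 13.6, 19.3 and 15.4%, all lay above the highest W/W mouse, at 6.47%. Tcirg1, the a3 subunit gene of lysosomes and osteoclasts, falls outside the naming rule of the set and is listed among lysosomal membrane proteins. It made up 46.2 ± 2.61% of the a subunit genes in W/W with vehicle, against 72.3 ± 1.60% in W/F and 72.6 ± 1.77% in F/F. The share stayed at 71.1 ± 1.86% in F/F with T0901317, and the W/F mice then held 51.9, 69.2, 50.6 and 48.9%, the highest in replicate 2. A share within a library does not depend on its scaling. Ctss rose from 3.13 ± 1.44% of the cathepsin sum in W/W with vehicle to 22.5 ± 1.20% in F/F, and Ctsl went from 32.5 ± 1.81% to 19.1 ± 1.76%. The ratio of the A to the B gene of the V1 head, Atp6v1a over Atp6v1b2, was 0.963 ± 0.0222 in W/W on chow, against 1.16 ± 0.121 in W/F and 0.979 ± 0.0733 in F/F. With vehicle it was lower in each genotype, at 0.782 ± 0.0697, 0.729 ± 0.0659 and 0.839 ± 0.0202 in the same order, with no overlap with chow.

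**Figure D4:**
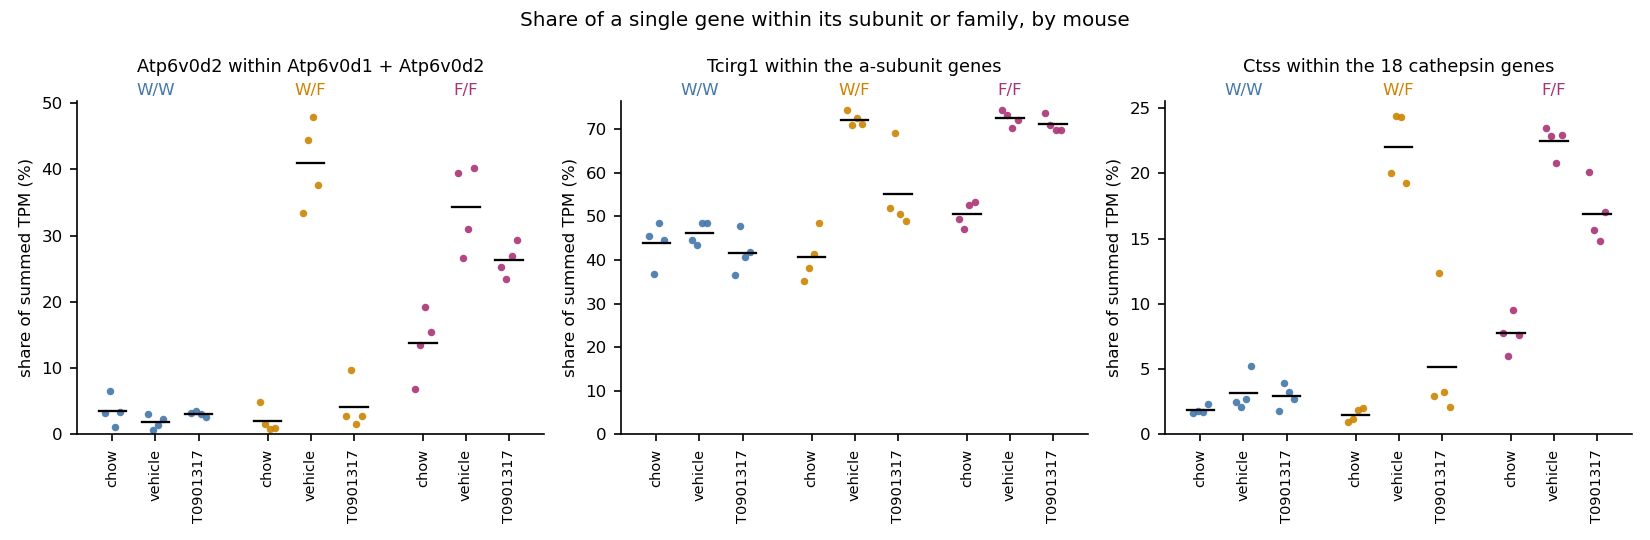
Share of Atp6v0d2 in the d subunit genes, of Tcirg1 in the a subunit genes and of Ctss in the 18 cathepsin genes, as percent of summed TPM in each mouse, with 4 points per group and a line at the mean. The shares are raised in W/F and F/F with vehicle and raised less in F/F on chow, where that of Tcirg1 overlaps W/W. In W/F with T0901317 those of Atp6v0d2 and Ctss are near the W/W range except in replicate 2. That of Tcirg1 is then 48.9 to 69.2%, against at most 48.6% in any W/W mouse.

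Members that failed the level filter were mostly genes of other tissues. Ctsm was at 0 in all 36 libraries, and its placental relatives Ctsq and Ctsr, in the same cluster on chromosome 13, had an estimated 2.001 and 1.005 reads in total. The cluster member nearest to Ctsq, Ctsj, did pass the filter. It was at 0 in all 4 mice of W/W on chow, W/W with vehicle and W/F on chow, and stood at 1.91, 0.461, 3.01 and 1.53 TPM in W/F with vehicle and 2.23, 2.08, 3.31 and 2.92 in F/F with vehicle. That separation rests on an estimated 365.9 reads over all libraries, and since Ctsj passed the filter through the groups where it is high, its calls add no support. Ctsg, a granule protease of neutrophils, was below the filter, with 0.681, 1.15, 0.114 and 0.826 TPM in F/F with vehicle. It was at 0 in all mice on chow of the W/F and F/F genotypes. In W/W on chow it stood at 0.0855, 0.658, 0 and 0.105 TPM, which overlaps F/F with vehicle. Atp6v1b1, the B subunit gene of kidney and epididymis, was above 0 in 8 of 36 libraries. The kidney and tissue-specific pump genes Atp6v0a4, Atp6v1b1, Atp6v1c2 and Atp6v1g3 and the testis gene Atp6v1e2 had at most 10.99 estimated reads in any library, and Atp6ap1l at most 1.997. No statement on a change is made for these genes at this depth.

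Among the 33 members tested, 29 had their highest group mean in F/F with vehicle. The exceptions were Atp6v0d2 and Ctsc, highest in W/F with vehicle, Ctso, highest in F/F on chow, and Ctse, highest in W/W with T0901317. The ratio of the highest to the lowest group mean ran from 1.46 (Atp6v0a2) to 56.7 (Atp6v0d2) for pump genes with a median of 2.84. For the 13 cathepsins with all means above 0 it ran from 1.47 (Ctso) to 75.9 (Ctss) with a median of 3.93, and the median over 15772 genes was 2.54. Members with TCACGTG in the window had a median log2 fold change between F/F and W/W with vehicle of 1.72 (n = 6, 0.76 to 2.64), and the other members with a window 1.39 (n = 17, 0.38 to 5.11). The ranges overlapped, with Atp6v0d1 low and Ctsd high among the 6 genes whose sites are printed above.

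Other genes of the lysosome were counted from lists, which are read here against the 69.3% of all genes that were higher in F/F than in W/W with vehicle on deposited TPM and the 31.3% after rescaling. Of 34 lysosomal hydrolases and activators tested, 34 higher and 0 lower passed in F/F against W/W with vehicle (median 1.34, all genes 0.70), and 24 higher and 3 lower after rescaling (median 0.54). Among them Lgmn, a cysteine protease that cleaves after asparagine and processes cathepsins, differed by 3.21 ± 0.24, and Psap, precursor of the saposins, by 2.76 ± 0.17. Of 21 membrane proteins, 20 higher and 0 lower passed, and 13 higher and 2 lower after rescaling, with Tcirg1 at 2.52 ± 0.21 and Lamp1 at 1.09 ± 0.07. Of 15 transcription factors and kinase adaptors of lysosome biogenesis, 14 higher and 0 lower passed. After rescaling 4 were higher, a share not above the 31.3% of all genes, and 4 were lower. In that list Mitf differed by 1.55 ± 0.15, Tfe3 by 1.39 ± 0.11 and Tfeb by 0.88 ± 0.14 on deposited TPM, beside a median gene at 0.70. Their values after rescaling are not given here. Of 8 cathepsin inhibitors tested, 7 higher and 0 lower passed, led by Cstb, a cytosolic inhibitor (3.63 ± 0.20), with 5 higher and 1 lower after rescaling. Of 10 assembly factors and regulators of the pump, 9 higher and 0 lower passed, with a median of 0.72 close to that of all genes, and 1 higher and 3 lower after rescaling. With T0901317 in W/F, 0 higher and 32 lower of the hydrolases and 0 higher and 5 lower of the inhibitors passed, against 59.3% of all genes that were lower. After rescaling 3 higher and 25 lower of the hydrolases and 1 higher and 3 lower of the inhibitors passed, against 27.3%. In W/W 5 higher and 1 lower of the hydrolases passed, against 10.8% of all genes in either direction, and 10 higher and 2 lower after rescaling, against 13.6%.

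The totals show the size of the change. The pump genes summed to 651, 724, 800.0 and 723 TPM in the W/W mice with vehicle and 1867, 1779, 1766 and 1903 in the F/F mice, without overlap. The cathepsin genes summed to 1451, 1616, 1856 and 1676 and 7808, 7639.7, 6696 and 8154 TPM. The ratio of cathepsin to pump transcripts was 2.27 ± 0.0519 (SD, n = 4) in W/W, against 3.88 ± 0.312 in W/F and 4.14 ± 0.237 in F/F with vehicle, so cathepsin transcripts gained more than those of the pump.

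Markers of several other cell types were also higher in F/F than in W/W with vehicle. Marker calls are given on deposited TPM only, where 69.3% of all genes tested were higher in this comparison. Pan-macrophage markers (5 genes, Cd68, Csf1r, Cd14, Fcgr1 and Lyz2) summed to 87.8 to 216 TPM in W/W with vehicle, against 2708 to 3578 in W/F and 3361 to 4318 in F/F. All 5 were higher in F/F, at 2.47 ± 0.31 for Csf1r. With T0901317 the sums were 107 to 234 TPM in W/W, 96.3 to 856 in W/F, where replicate 2 held the top value, and 1242 to 2029 in F/F. The 8 markers of monocyte-derived and lipid-associated macrophages, Trem2, Gpnmb and Spp1 among them, were at 71.5 to 78.7 TPM in W/W and 4277 to 4958 in F/F with vehicle, and 8 of 8 were higher. Kupffer cell markers moved otherwise, with 6 genes at 181 to 227 TPM in W/W, against 326 to 448 in W/F and 34.5 to 50.4 in F/F with vehicle, 1 higher and 5 lower in F/F. Clec4f, the gene most specific to Kupffer cells, differed by -5.76 ± 0.27 in F/F against W/W. In W/F against W/W with vehicle the calls were split, with 2 of the 6 higher and 2 lower.

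Neutrophil markers (7 genes) summed to 3.58 to 9.06 TPM in W/W and 143 to 418 in F/F with vehicle, with 5 of 6 tested higher, beside Ctsg and Ctsc. T and NK cell markers (7 genes), beside Ctsw, were at 3.92 to 9.60 TPM in W/W and 10.7 to 17.5 in F/F. Of these, 3 of 5 tested were higher, a share not above the 69.3% of all genes. Stellate cell and myofibroblast markers (5 genes) were at 88.1 to 138 TPM in W/W and 783 to 948 in F/F, with 5 of 5 higher. Bile duct markers (4 genes) were at 6.02 to 8.73 and 121 to 153 TPM, with 4 of 4 higher, and hepatocyte markers (8 genes) at 65319 to 86583 and 34756 to 37942 TPM, with 4 of 8 lower and none higher. The osteoclast list (4 genes), beside Ctsk and Atp6v0d2, was at 124 to 147 and 194 to 255 TPM, with both genes tested higher, and Acp5, which is also on the hydrolase list, made up most of it. Its defining receptors Calcr and Oscar reached at most 0.106 and 0.185 TPM in F/F mice with vehicle. B cell (4), dendritic cell (4), and mast cell and basophil (4) lists summed to at most 8.50, 9.22 and 3.41 TPM in any library, and the 4 endothelial genes to between 22.5 and 48.4. The part of any of these cells in the results for the members was not tested.

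**Figure D5:**
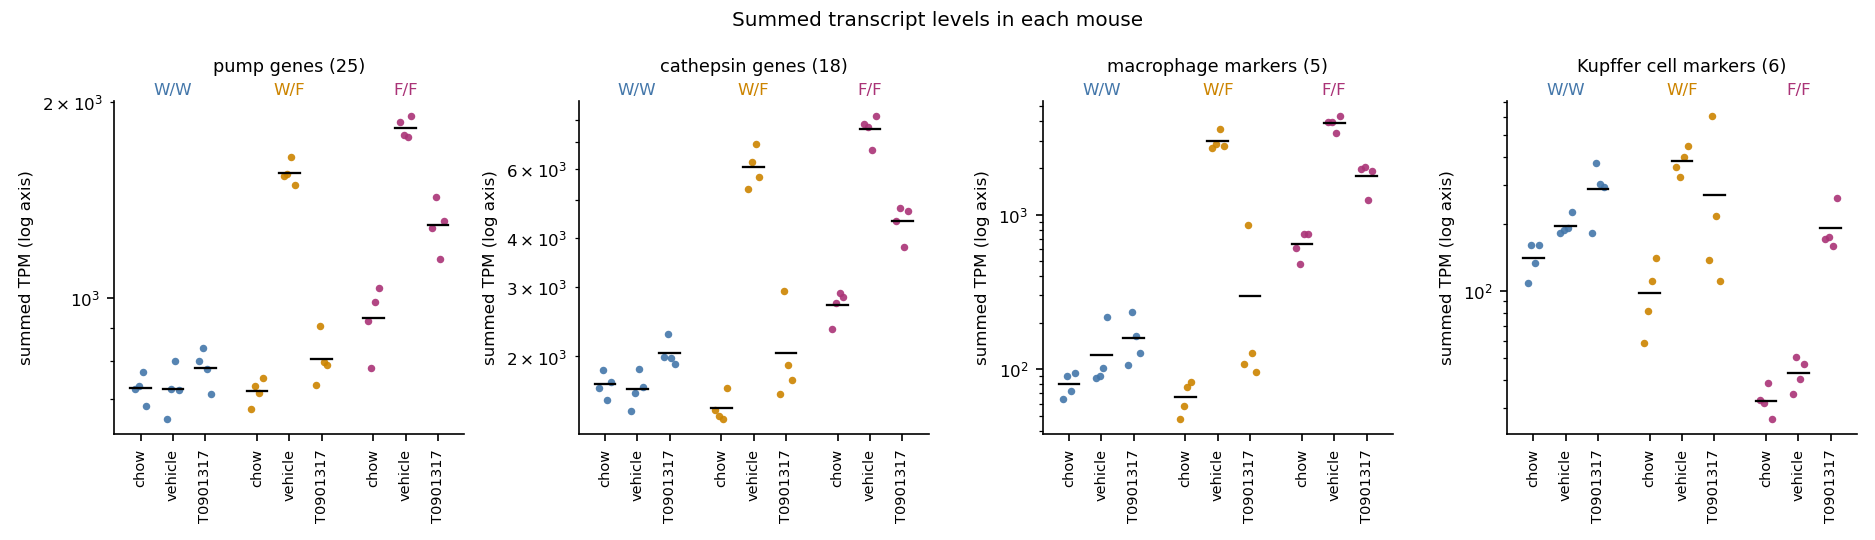
Summed TPM of the 25 pump genes, the 18 cathepsin genes, 5 pan-macrophage markers and 6 Kupffer cell markers in each mouse, on log axes of different span, with 4 points per group and a line at the mean. Pump, cathepsin and pan-macrophage sums share their order of groups for W/F and F/F with vehicle above the other groups, while Kupffer cell markers in F/F are lowest on chow and with vehicle.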

How the data were processed

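The authors deposited gene-level TPM, and each column sums to 1000000. Per the submitters' processing notes, Trimmomatic 0.36, STAR 2.5.2b and featureCounts of Subread 1.5.2 were named for the GRCm38 (mm10) build, without settings. The strand setting and the annotation release are not given in the sources used here. Because TPM carries no depth, reads were estimated from the steps of low values, of which 93.67 to 95.64% of genes under 20 reads lay within 0.1 of a whole number, where chance gives 20%. These estimates describe depth only.

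Groups came from genotype and treatment in the labels. TPM + 1 was log2-transformed and genes reaching 1 TPM in 4 or more samples were fitted with limma 3.58.1 in R 4.3.3 (trend, moderated variance), with 1 mean for each of 9 groups and no covariates, giving 15 comparisons of 2 groups and 4 differences of responses. P-values were two-sided and Benjamini-Hochberg adjusted over all 16638 genes, with a threshold of 0.05. The fit was tested on simulated data. Alternatives were a pseudocount of 0.1, no filter, a 5 TPM filter, only the groups compared, a replicate block, leaving out each replicate, and rescaling by median-of-ratios factors over 13950 genes (0.692 to 1.47).

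Members and gene lists were chosen with earlier results of these data known. Members were named where a group mean reached 5 TPM, with values for each mouse for preset genes and for the 3 largest and 3 smallest called changes without overlap. Ctsj and the members under the filter fall outside that level and are named to account for the whole set. Other lists were counted whole: lysosomal hydrolases and activators, lysosomal membrane proteins, transcription factors and kinase adaptors, cathepsin inhibitors, pump assembly and regulators, and markers of 14 cell types. Coordinates and exon overlaps are from GENCODE M21 on GRCm38, matched for 49056 genes and not for 259.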

Additional observations from a re-analysis of the deposited data

Results flagged for a closer look

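In 17 of 288 groups of 4 mice, 1 mouse stood apart from the other 3 by a gap of more than 0.829 of the group's range, and chance gives about 1 in 20. W/F T0901317 replicate 2 accounted for 7 of them. In that mouse Ctss stood at 361.9 TPM where the others were at 36.48 to 61.39, Ctsd at 392.9 (198.9 to 212.3), Ctsb at 527.4 (264.8 to 304) and Ctsc at 49.6 (15.6 to 17.47). Among pump genes Atp6v0d2 was at 9.457 TPM (1.435 to 2.555), Atp6v0e at 32.16 (24.83 to 25.63) and Atp6v1d at 79.0 (66.82 to 68.58).

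F/F chow replicate 2 was low for 3 members, with Ctsz at 323.3 TPM where the others were at 441.3 to 463, Ctsa at 73.27 (88.38 to 90.93) and Atp6v0b at 81.99 (102.5 to 104). W/W T0901317 replicate 2 was high for 3, with Ctsl at 714.8 TPM (656.9 to 664.8), Atp6v1e1 at 55.42 (50.98 to 51.51) and Atp6ap2 at 36.64 (27.3 to 28.18). The remaining values were Atp6v0d2 at 4.28 TPM in W/F chow replicate 1 (0.7679 to 1.259), Ctsh at 120.7 in W/F chow replicate 3 (127.9 to 128.4), Atp6v1b2 at 36.46 in F/F T0901317 replicate 3 (43.84 to 44.28) and Atp6v1c1 at 34.14 in W/W vehicle replicate 1 (44.03 to 44.65).

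The responses of the members differed between genotypes when the difference itself was tested. Ctsj and Atp6v0e2 are among the members behind these counts, and their calls add no support. On deposited TPM the T0901317 response was more negative than that of W/W for 31 members in W/F, against 53.2% of all genes, and for 26 in F/F, against 27.2%. After rescaling it was more negative for 19 and more positive for 2 in W/F, against 24.1% of all genes more negative, and more negative for 11 in F/F, against 10.1%. The diet response on deposited TPM was more positive for 29 members in W/F, against 49.5% of all genes, and for 28 in F/F, against 41.5%. After rescaling it was more positive for 19 members in W/F, against 21.1%, and for 19 in F/F, against 14.7%, and more negative for 1 member in each.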

How the results depend on the processing

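Of the 19 counts of members called, all stayed within 1.5 times with a pseudocount of 0.1 or a 5 TPM filter. Rescaling moved 6: T0901317 in F/F to 11, F/F against W/W on chow to 9, F/F against W/F on chow to 13 and with vehicle to 1, W/F against W/W on chow to 1 (Atp6v1g1), and the T0901317 response of F/F minus W/W to 11. Without a filter, T0901317 in W/W gave 3 and the diet in W/W 1. With only the groups compared, these gave 3 and 0, and W/F against W/W with T0901317 gave 2, where fewer samples set the spread. Leaving out 1 mouse gave 3 to 6 for T0901317 in W/W (3 without T0901317 replicate 3 or vehicle replicate 1), 1 to 2 for the diet in W/W (1 without chow replicate 2 or 3 or vehicle replicate 1 or 4) and 5 to 13 for F/F against W/F with vehicle (5 without F/F replicate 1). Among the single called values given in the report, rescaling reversed Ctsf (-0.45), Ctso (-0.38), Atp6v0a2 (-0.29), Atp6v1h (-0.23), Ctsh (-0.11) and Atp6v0d1 (-0.094) in F/F against W/W with vehicle, Atp6v0d1 (-0.21) there with T0901317, Atp6v0d1 (-0.13) and Atp6v1d (-0.019) there on chow, and with T0901317 in W/F Ctso (0.27), Atp6v0a2 (0.23), Atp6v0d1 (0.12) and Atp6v1h (0.057). It also reversed Ctsh in the T0901317 response of W/F minus W/W (0.36) and, among values not called, Ctse with T0901317 in F/F (0.10). Values near 0 changed sign when 1 mouse was left out: Ctse with T0901317 in W/F (-0.056 to 0.074) and in F/F (-0.13 to 0.16), and Ctsf in W/F (-0.085 to 0.11). The causes were not tested.

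The labels give the replicate numbers no meaning beyond naming samples. By estimated depth, replicate 1 was the deepest library in some groups. In W/F with vehicle it held 34.44 M reads (the others 23.42 to 25.29) and in F/F with T0901317 35.79 M (21.32 to 27.72). In other groups it was not, and in W/W with vehicle it was the shallowest (21.34 M). The cause was not tested. Deviations of same-numbered samples correlated at 0.0165 on average, with 18 of 144 pairs over 0.1, and those of differently numbered ones at -0.0054, with 38 of 432. With the replicate number as a block, T0901317 in W/W gave 8 members, in W/F 30 and in F/F 25, and F/F against W/W with vehicle 32. All 19 counts stayed within 1.5 times.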
